A study of Homo sapiens with 6 samples.

Results

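The splicing regulators and neural RNA-binding proteins described here are 57 genes of 11 families: the SR proteins, the TRA2 proteins, the hnRNPs, and the PTBP, RBFOX, NOVA, ELAVL, CELF, MBNL, STAR (QKI, KHDRBS1 and KHDRBS3) and ESRP proteins. They were chosen by name, and each was found once among the 58174 genes of the deposited mRNA-seq table. KNS42 is a long-established line grown from a glioblastoma (GBM) of childhood. These cells were transfected with siRNAs directed against MSI1 (siMSI1, n = 3) or with a control siRNA (siC, n = 3), and polyA RNA was harvested 72 h later from both groups. No other agent or allele is named for either group. All libraries come from this cell line, and no source used here says whether the 3 libraries of a group were separate transfections, so the p-values measure the spread between these libraries, which may be technical. The question was how the mRNA levels of other RNA-binding proteins differed between cells with and without depletion of MSI1, itself a neural RNA-binding protein.

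SR proteins bind enhancer sequences in exons and help to recruit the spliceosome, whereas many hnRNPs bind exons or introns and repress the use of nearby splice sites. PTBP1 keeps neural exons skipped in cells that are not neurons, and its paralog PTBP2 takes over in developing neurons. RBFOX, NOVA, ELAVL and CELF proteins are best known for the alternative splicing and the mRNA stability of brain transcripts, MBNL proteins for splicing switches during differentiation, QKI for glial cells, and ESRP proteins for epithelial cells.

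Levels are given in FPKM, the fragments on a gene scaled to its length and to the fragments of the library. The length is that of the deposited gene model, 22512 bases for HNRNPU for example, and can exceed that of the mRNA. Levels of different genes, family sums and shares of paralogs can therefore be compared only roughly. Differences are log2 fold changes of siMSI1 over siC on log2(FPKM + 0.1), with the standard error (SE). They were tested with limma across the 15069 genes with a mean of at least 0.5 FPKM, and a gene was called higher or lower at a Benjamini-Hochberg adjusted p of at most 0.01. The reads on genes numbered 14448513 to 18024080 per library in siC and 13087025 to 14700593 in siMSI1. MSI1 was at 63.7, 61.9 and 66.9 FPKM in siC, against 12.1, 12.3 and 11.2 FPKM in siMSI1, which is 18.5% of the siC mean, and no library went against its label. Its paralog MSI2 was at 16.9 ± 0.960 FPKM in siC and 14.3 ± 1.07 FPKM in siMSI1 (SD, n = 3; limma adjusted p = 0.062).

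Only the tested members can enter a count: 47 of 57 passed the filter, and the 10 that did not were RBFOX1, RBFOX3, ELAVL3, ELAVL4, CELF3, CELF4, CELF5, CELF6, ESRP1 and ESRP2. No library held more than 35 reads of any of these 10. No tested member had fewer than 82 reads in a library, and the lowest group mean among them was 0.630 FPKM. No member passed the filter through 1 group alone.

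4 of the 47 tested members were called, or 8.51%, where 11% of all tested genes were called (5.83% lower and 5.15% higher). CELF2 and HNRNPA0 fell and NOVA1 and NOVA2 rose. The share of called members was thus near that of all genes. CELF2, which binds GU-rich sequences in introns and 3′UTRs, was the member with the largest change, and its call was the only one among these that held under each of 16 other settings of the analysis.

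The regulatory sequence just before the starts of the NOVA genes is shown because the 2 NOVA genes were the members that rose. Both are printed 5′ to 3′ on the minus strand from the RefSeq promoter table (GRCh38.p14), with GC boxes (GGGCGG on either strand) and CCAAT boxes (CCAAT on either strand) in capitals. The NOVA1 sequence is the 250 bases before the listed start nearest to the start of the deposited gene, chr14:26598034-26598283. For NOVA2 only the 71 bases that lie outside the deposited gene model are shown, chr19:45974045-45974115.
NOVA1: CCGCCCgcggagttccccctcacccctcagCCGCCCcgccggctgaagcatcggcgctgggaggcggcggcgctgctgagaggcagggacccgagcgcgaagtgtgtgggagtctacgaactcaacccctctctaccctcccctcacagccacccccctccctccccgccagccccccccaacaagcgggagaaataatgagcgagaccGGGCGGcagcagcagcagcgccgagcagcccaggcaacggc
NOVA2: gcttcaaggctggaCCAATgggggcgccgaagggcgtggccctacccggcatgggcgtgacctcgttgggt

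Over the full 250 bases before the RefSeq start, NOVA1 held 3 GC boxes and no CCAAT box, and NOVA2 held 2 GC boxes, both in the part not shown, and 1 CCAAT box. Of the 35116 promoters of that length in the table, 42.6% held a GC box and 32.0% a CCAAT box. Neither NOVA window held TATAAA, the letters of a TATA box, which 10.7% of the promoters held, nor CANNTG, the letters of an E-box, which 61.8% held. G and C made up 71.6% of the NOVA1 window and 78.0% of the NOVA2 window, where the median of all promoters was 58.0%. These matches describe letters and not binding.

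**Figure D1:**
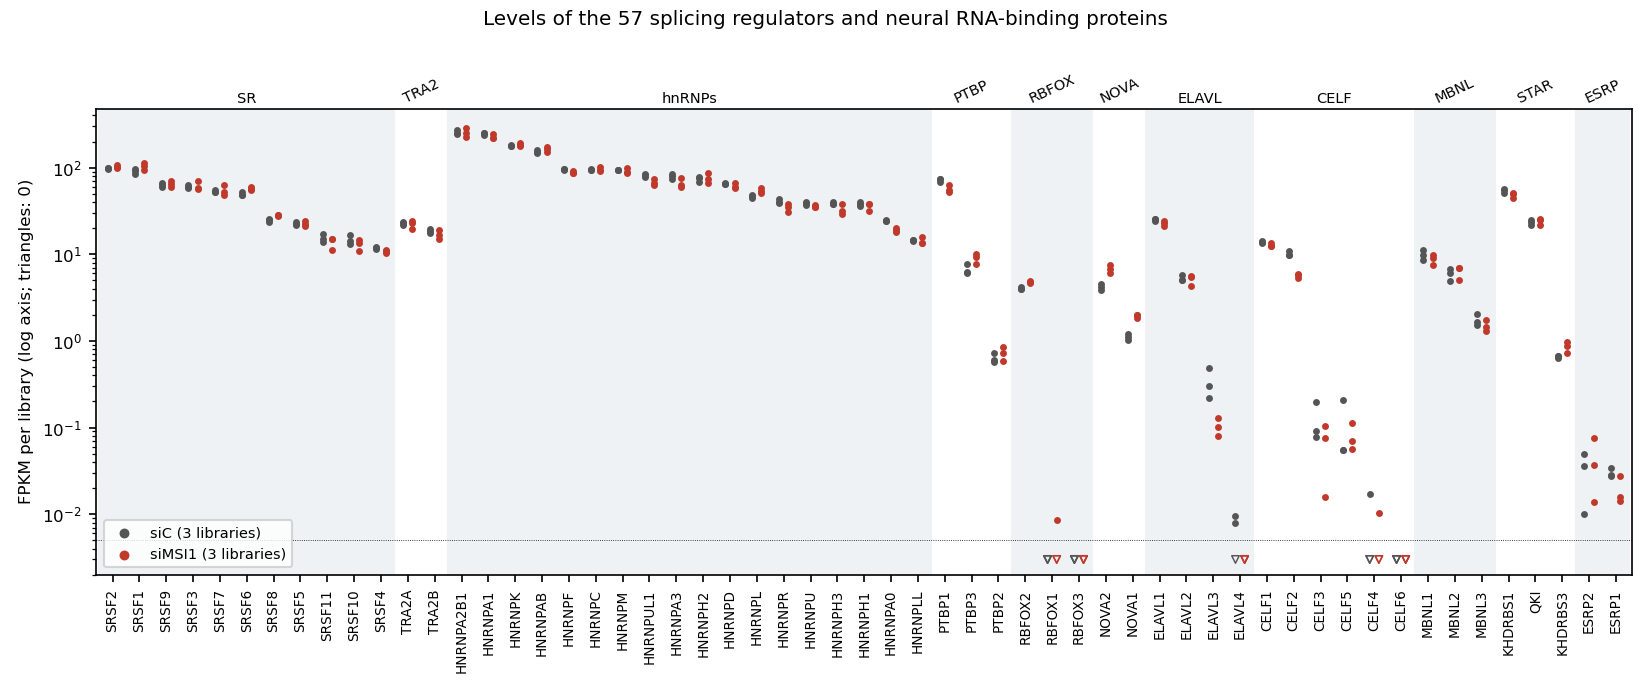
FPKM of each of the 57 members in the 3 siC libraries (grey) and the 3 siMSI1 libraries (red) on a log axis, by family and in the order of their siC mean within each family; triangles below the dotted line are libraries at 0. The hnRNPs reach 257 FPKM, while RBFOX3 and CELF6 are at 0 in all 6 libraries.

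The tested members had a median of 38.1 FPKM in siC, where the median of all tested genes was 5.19 FPKM, and the median member lay above 90.7% of the tested genes. 37 members were above 10 FPKM in siC and 4 were above 100 FPKM, namely HNRNPA2B1, HNRNPA1, HNRNPK and HNRNPAB. The general regulators made up the upper end of this range, as the plot of levels by family shows. Its lower end held the RBFOX, NOVA and ESRP proteins, PTBP2, ELAVL3, ELAVL4, MBNL3, KHDRBS3 and most CELF proteins.

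All 11 SR proteins were expressed, from 11.9 FPKM for SRSF4 to 97.4 FPKM for SRSF2 in siC, and none was called. SRSF2, which activates exons through enhancers and is the SR protein with the highest level, was at 96.1, 98.0 and 98.1 FPKM in siC, against 102, 99.0 and 106 FPKM in siMSI1. The siMSI1 libraries lay above the siC libraries, by 0.07 on the log2 scale (SE 0.059, limma adjusted p = 0.41). SRSF2 shares its locus with MFSD11 on the opposite strand, whose reads equalled 16.2% of those of SRSF2.

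SRSF8, a paralog of SRSF2, came nearest to the threshold among the SR proteins. It was at 25.3, 24.8 and 23.6 FPKM in siC, against 28.4, 28.0 and 28.2 FPKM in siMSI1. The groups did not overlap, and the difference was 0.20 (SE 0.060) with a limma adjusted p of 0.046. SRSF6 was at 49.7 ± 2.52 FPKM in siC, against 57.2 ± 2.93 FPKM in siMSI1 (SD, n = 3; limma adjusted p = 0.068), also without overlap. SRSF1, the founding member of the family, was at 90.3 ± 6.31 and 104 ± 10.1 FPKM (SD, n = 3; limma adjusted p = 0.15), and its groups overlapped. The log2 fold changes of the 11 SR proteins ran from -0.18 for SRSF11 to 0.20 for SRSF6, 8 of them above 0, with a median of 0.03. Their summed level was 503 ± 15.6 FPKM in siC and 533 ± 32.2 FPKM in siMSI1 (SD, n = 3).

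TRA2A and TRA2B bind GA-rich exon enhancers together with SR proteins, and neither was called. TRA2A was at 22.7, 23.8 and 21.9 FPKM in siC, against 24.4, 23.0 and 19.6 FPKM in siMSI1, with overlap of the groups and a log2 fold change of -0.04 (SE 0.090, limma adjusted p = 0.81). TRA2B was at -0.14 (limma adjusted p = 0.30).

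The hnRNPs were the family with the highest summed FPKM, with 1664 ± 26.4 FPKM in siC and 1606 ± 107 FPKM in siMSI1 (SD, n = 3). HNRNPA0 was the only one of 18 that was called. HNRNPA0 binds AU-rich elements of mRNAs and is encoded on chromosome 5 (hg38, 137745651 to 137754363, minus strand). It was at 24.1, 24.1 and 24.6 FPKM in siC, against 18.0, 18.9 and 20.1 FPKM in siMSI1, so that the siMSI1 libraries stood at 78.4% of the siC mean without overlap. The log2 fold change was -0.35 (SE 0.066, 95% interval -0.50 to -0.20, limma adjusted p = 0.0079). This call held in 8 of 16 other settings and in 1 of the 6 fits that left out a library, the fit without siMSI1 replicate 3. In the other 5 fits the limma adjusted p was up to 0.041.

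HNRNPA2B1, an RNA-transport and splicing factor, had the highest level of all members. It was at 250, 274 and 247 FPKM in siC, against 248, 289 and 228 FPKM in siMSI1. The groups overlapped, and the log2 fold change was -0.02 (SE 0.097, 95% interval -0.24 to 0.21, limma adjusted p = 0.92). HNRNPA1, the classic antagonist of SRSF1 in splice site choice, was at 247 ± 6.44 and 228 ± 16.4 FPKM (SD, n = 3; limma adjusted p = 0.29). Its pseudogenes held reads equal to 5.10% of its own, the highest share among the 15 members with named pseudogenes, and none of their 12 tested pseudogenes was called.

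Of the 18 hnRNPs, 13 had a log2 fold change below 0 and 5 above 0, with a median of -0.09, and 50% of all tested genes lay below 0. HNRNPUL1, a DNA-damage and transcription factor of the HNRNPU type, was at 81.1, 78.2 and 83.6 FPKM in siC, against 63.5, 66.5 and 74.3 FPKM in siMSI1. Its groups did not overlap, and the log2 fold change was -0.25 (SE 0.075, limma adjusted p = 0.044). TGFB1 overlaps HNRNPUL1 on the opposite strand, with reads equal to 43.9% of those of HNRNPUL1 and a log2 fold change of 0.32. The libraries were strand-specific, but whether the counting used the strand is not given in the sources used here, so reads of members and of genes on the opposite strand cannot be told apart with certainty. This holds for HNRNPUL1 and TGFB1, for SRSF2 and MFSD11, and for 6 further tested members with a tested opposite-strand gene whose reads exceeded 10% of their own. These were SRSF9 (DYNLL1, 120%, and GATC, 25.3%), HNRNPA3 (NFE2L2, 59.6%), HNRNPA2B1 (CBX3, 25.5%), HNRNPH3 (RUFY2, 18.1%), HNRNPU (COX20, 10.8%) and CELF1 (NDUFS3, 76.7%, and PTPMT1, 12.9%). COX20 was the only called gene among them, higher by 0.60 on the log2 scale. These shares count all reads of the neighbouring gene, also outside the overlap, so they do not measure how many reads could be shared. CBX3, for example, overlaps HNRNPA2B1 only from 26201162 to 26201529 on chromosome 7.

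HNRNPL, which binds CA repeats, was the hnRNP with the highest log2 fold change, 0.22 (SE 0.070, limma adjusted p = 0.056). It was at 47.6, 44.9 and 47.7 FPKM in siC, against 51.0, 54.4 and 58.2 FPKM in siMSI1, without overlap. HNRNPA3, HNRNPH3 and HNRNPR had log2 fold changes of -0.27, -0.24 and -0.23 with limma adjusted p-values of 0.097, 0.11 and 0.081. The other 12 hnRNPs lay between -0.11 and 0.08.

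The PTBP proteins bind pyrimidine-rich stretches near splice sites. No PTBP member was called at 0.01, and PTBP1 and PTBP3 had values on opposite sides of 0. PTBP1 was at 73.2, 67.5 and 73.3 FPKM in siC, against 55.7, 52.5 and 63.0 FPKM in siMSI1, 79.9% of the siC mean. The groups did not overlap, and the log2 fold change was -0.33 (SE 0.083, 95% interval -0.52 to -0.13, limma adjusted p = 0.025). PTBP3 was at 6.21, 7.73 and 6.06 FPKM in siC, against 10.0, 9.20 and 7.79 FPKM in siMSI1, also without overlap, with a log2 fold change of 0.43 (SE 0.127, 95% interval 0.13 to 0.72, limma adjusted p = 0.043). PTBP1 passed 0.01 in 5 and PTBP3 in 2 of the 16 other settings, voom among them for both.

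The neural paralog PTBP2 stayed near the lower limit of what was tested, at 0.568, 0.722 and 0.602 FPKM in siC, against 0.718, 0.849 and 0.592 FPKM in siMSI1. Its groups overlapped, and its interval was the widest of all tested members (log2 fold change 0.16, 95% interval -0.43 to 0.75, limma adjusted p = 0.69), so that a rise of 1.41-fold could not be told from no change at this depth. PTBP1 made up 90.7% ± 1.58 of the FPKM of the family in siC and 85.3% ± 2.52 in siMSI1 (SD, n = 3), while PTBP3 made up 8.50% ± 1.45 and 13.6% ± 2.30. In siMSI1 replicate 3 the share of PTBP1 was 88.3%, close to the 88.9% of siC replicate 2, so the shares were separated by little.

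**Figure D2:**
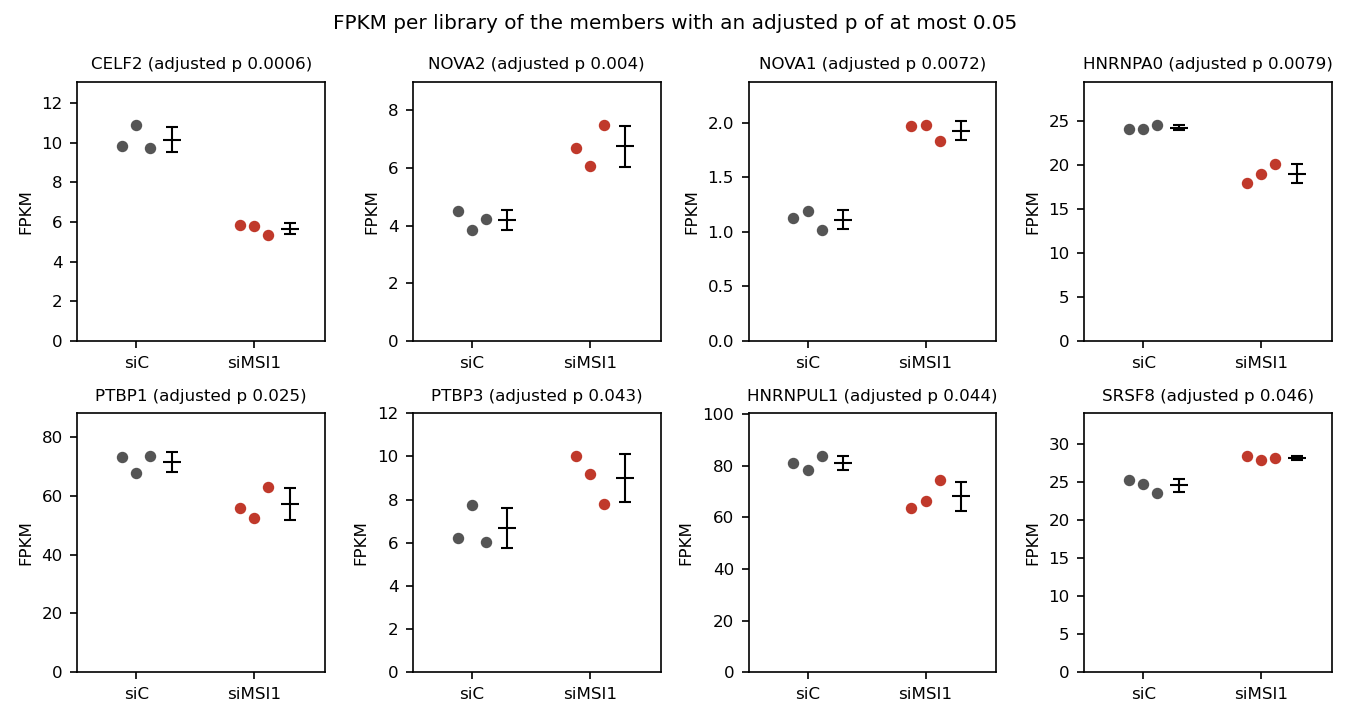
FPKM in each siC library (grey) and each siMSI1 library (red) of the 8 members with a limma adjusted p of at most 0.05, with mean and SD (black) beside the points and axes that start at 0. CELF2, HNRNPA0, PTBP1 and HNRNPUL1 are lower and NOVA2, NOVA1, PTBP3 and SRSF8 are higher in siMSI1, and in none of the 8 do the groups overlap.

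At an adjusted p of 0.05 the count of members was 8 (17.0%), 4 lower and 4 higher, beside 25.1% of all tested genes. Those 8 are the members in the plot of values per library. The groups did not overlap in 19 of the 47 tested members (40.4%; 10 below and 9 above), where this held for 42.8% of all tested genes (21.5% below and 21.4% above).

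The count of called members differed between settings. 4 members were called with a pseudocount of 1 or 0.01 (beside 11% and 11.1% of all genes) and with a mean of at least 1 FPKM (14.2%). 6 were called by quantile normalization (11.7%) and by voom on recovered reads (18.7%), 3 by median centring (10.3%), 2 by plain eBayes (5.62%) and 1 without a filter on low values (2.65%). Without siC replicate 1, 2 or 3, or without siMSI1 replicate 1, only CELF2 was called (beside 3.43%, 5.6%, 5.32% and 5.41% of all genes). Without siMSI1 replicate 2 there were 2 members (5.85%), and without siMSI1 replicate 3 there were 4 (10.6%).

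Of the RBFOX proteins, which bind UGCAUG in introns, only RBFOX2 was expressed. It was at 4.01, 4.17 and 3.93 FPKM in siC, against 4.75, 4.68 and 4.91 FPKM in siMSI1. The siMSI1 libraries lay above the siC libraries, by 0.24 (SE 0.081, limma adjusted p = 0.066). The neuronal RBFOX1 had 1 read in 1 siMSI1 library and none elsewhere, and RBFOX3, the NeuN antigen of mature neurons, had none.

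Both NOVA mRNAs rose. The NOVA proteins, which were not measured, bind clusters of YCAY and regulate exons of synaptic transcripts in neurons. NOVA2, the form of the developing cortex, lies on chromosome 19 (hg38, 45933734 to 45974044, minus strand). It was at 4.51, 3.85 and 4.23 FPKM in siC, against 6.69, 6.09 and 7.51 FPKM in siMSI1. All siMSI1 libraries were above all siC libraries, and the log2 fold change was 0.67 (SE 0.106, 95% interval 0.43 to 0.92, limma adjusted p = 0.0040), or 1.59-fold. The call held in 10 of 16 other settings, and in 2 of the 6 fits without a library, those without siMSI1 replicate 2 or 3.

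NOVA1, the paralog of hindbrain and spinal cord, lies on chromosome 14 (hg38, 26443090 to 26598033, minus strand). It was at 1.12, 1.19 and 1.02 FPKM in siC, against 1.97, 1.98 and 1.83 FPKM in siMSI1, on 147 to 292 reads per library. The groups did not overlap, and the log2 fold change was 0.75 (SE 0.136, 95% interval 0.43 to 1.06, limma adjusted p = 0.0072), or 1.68-fold. The call held in 8 of 16 other settings and in none of the 6 fits without a library, where the limma adjusted p was 0.014 to 0.031. A sense-intronic gene within NOVA1 held reads equal to 1.93% of its own.

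The share of NOVA1 in the summed NOVA level was 21.0% ± 2.34 in siC and 22.3% ± 2.51 in siMSI1 (SD, n = 3), so the balance of the paralogs differed by less than its spread while their sum went from 5.31 to 8.69 FPKM. In siMSI1 the sum was 164% of that in siC.

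ELAVL1 (HuR), which binds AU-rich elements and stabilizes mRNAs in nearly all cells, was the leading member of its family. It was at 25.2, 24.2 and 25.2 FPKM in siC, against 22.7, 21.4 and 24.0 FPKM in siMSI1. The highest siMSI1 library was just below the lowest siC library, and the log2 fold change was -0.13 (SE 0.067, limma adjusted p = 0.19). Of the neuronal ELAVL proteins, ELAVL2 (HuB) was at 5.26 ± 0.396 FPKM in siC and 5.10 ± 0.698 FPKM in siMSI1 (SD, n = 3; limma adjusted p = 0.80). ELAVL3 (HuC) was below the filter, at 0.491, 0.302 and 0.219 FPKM in siC and 0.128, 0.080 and 0.102 FPKM in siMSI1 on 5 to 35 reads, and ELAVL4 (HuD) never exceeded 1 read.

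CELF2 fell, and CELF1 was not called. CELF2 lies on chromosome 10 (hg38, 10798397 to 11336675, plus strand). It was at 9.83, 10.9 and 9.74 FPKM in siC, against 5.86, 5.80 and 5.33 FPKM in siMSI1, or 10.2 ± 0.651 and 5.66 ± 0.290 FPKM (SD, n = 3). The siMSI1 libraries stood at 55.7% of the siC mean, far from any siC library. The log2 fold change was -0.83 (SE 0.081, 95% interval -1.02 to -0.64, limma adjusted p = 0.0006). The call held in all 6 fits without a library, with a limma adjusted p of at most 0.0049, and genes that overlap CELF2 held at most 0.063% of its reads.

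CELF1, which binds GU-rich elements and promotes mRNA decay, was the family member with the highest level. It was at 14.2, 13.98 and 13.4 FPKM in siC, against 12.4, 13.5 and 12.6 FPKM in siMSI1, with overlap (log2 fold change -0.11, SE 0.066, limma adjusted p = 0.27). Reads of CELF1 share the limit from opposite-strand genes given for the hnRNPs. As CELF2 fell, its share of the CELF sum went from 41.9% ± 1.35 in siC to 30.4% ± 1.19 in siMSI1 (SD, n = 3), and that of CELF1 from 57.2% ± 1.56 to 68.8% ± 1.24. The neural CELF3, CELF4, CELF5 and CELF6 reached 18 reads in a library at most, and CELF6 had none.

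**Figure D3:**
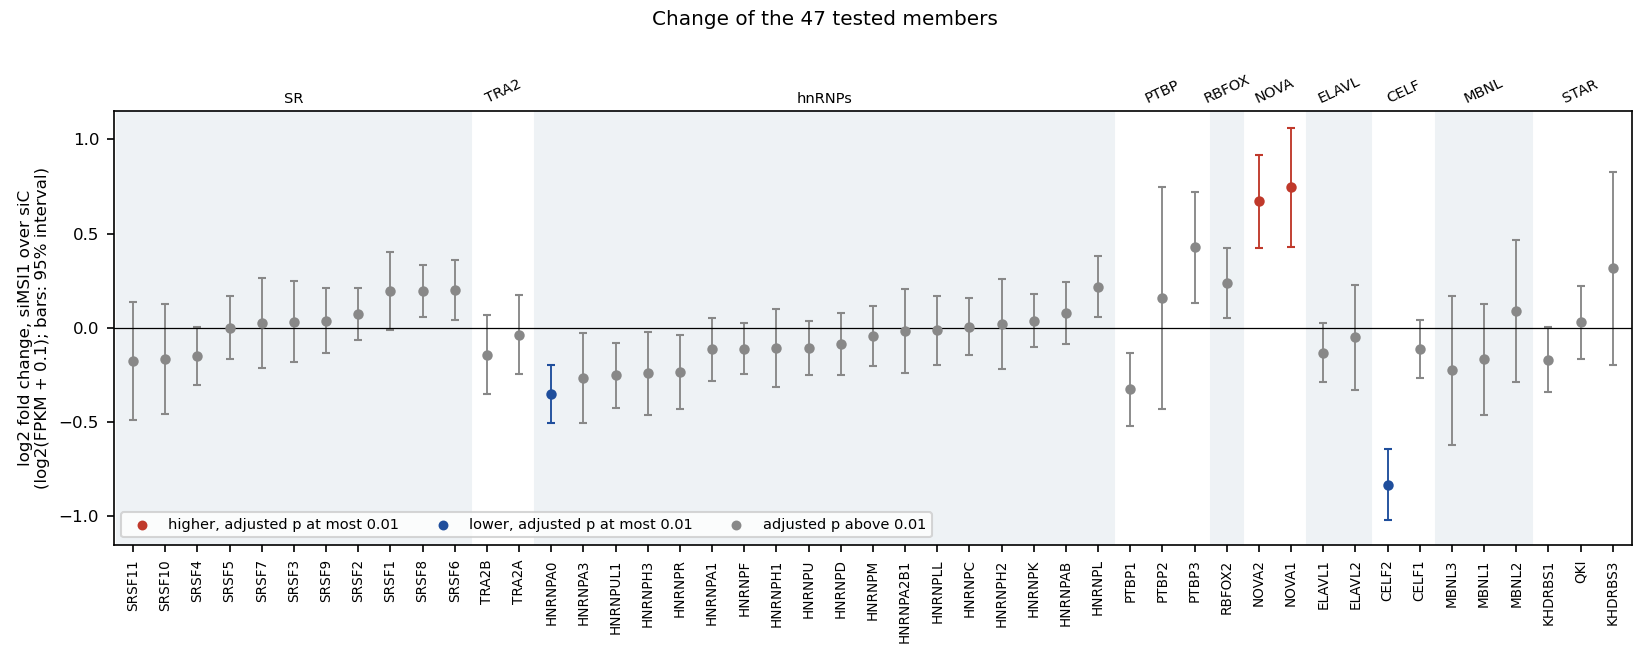
Log2 fold change of siMSI1 over siC with its 95% interval for the 47 tested members, ordered within each family; members called higher are red, those called lower blue and the rest grey. CELF2 at -0.83, NOVA1 at 0.75 and NOVA2 at 0.67 stand furthest from 0, and most of the rest lie within 0.2 of it.

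No MBNL protein was called. MBNL1, which drives adult splice patterns, was at 9.80, 11.1 and 8.61 FPKM in siC, against 9.77, 9.06 and 7.49 FPKM in siMSI1, with overlap (log2 fold change -0.17, SE 0.127, limma adjusted p = 0.38). MBNL2, the form most tied to the brain, was at 0.09 (limma adjusted p = 0.72) and MBNL3 at -0.22 (limma adjusted p = 0.38). In each MBNL gene the spread between libraries of 1 group was as large as the difference between the groups.

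None of the STAR proteins, which carry a KH domain and act downstream of signaling, was called. KHDRBS1 (Sam68) was at 55.7, 56.5 and 51.5 FPKM in siC, against 50.7, 50.1 and 44.9 FPKM in siMSI1, without overlap (log2 fold change -0.17, SE 0.074, limma adjusted p = 0.14). QKI was at 23.5 ± 1.63 and 24.0 ± 1.88 FPKM (SD, n = 3; limma adjusted p = 0.84). KHDRBS3 (SLM2) was at 0.662 ± 0.025 and 0.854 ± 0.124 FPKM (SD, n = 3; limma adjusted p = 0.34). The epithelial ESRP1 and ESRP2 reached 6 reads in a library at most, and ESRP2 led this family with 0.036, 0.010 and 0.050 FPKM in siC and 0.037, 0.014 and 0.075 FPKM in siMSI1.

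For 37 of the 43 members that were not called, the 95% interval of the log2 fold change lay within 0.5 of 0, a 1.41-fold change. The 6 exceptions were HNRNPA3, PTBP1, PTBP2, PTBP3, MBNL3 and KHDRBS3. These intervals are not adjusted for the number of genes and reflect only the spread between these libraries. The called change of HNRNPA0 (-0.35) was itself smaller than this limit, so an interval within it does not mean no change. 32 of the 47 tested members had a log2 fold change within 0.2 of 0, and none changed 2-fold. The median size of the log2 fold change, without its sign, was 0.14 for the members and 0.24 for all tested genes, and it was 0.19 for the 1492 tested genes at or above the median level of the members, of which 16.2% were called. The median log2 fold change with its sign was -0.04 for the members and 0.00 for all tested genes.

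**Figure D4:**
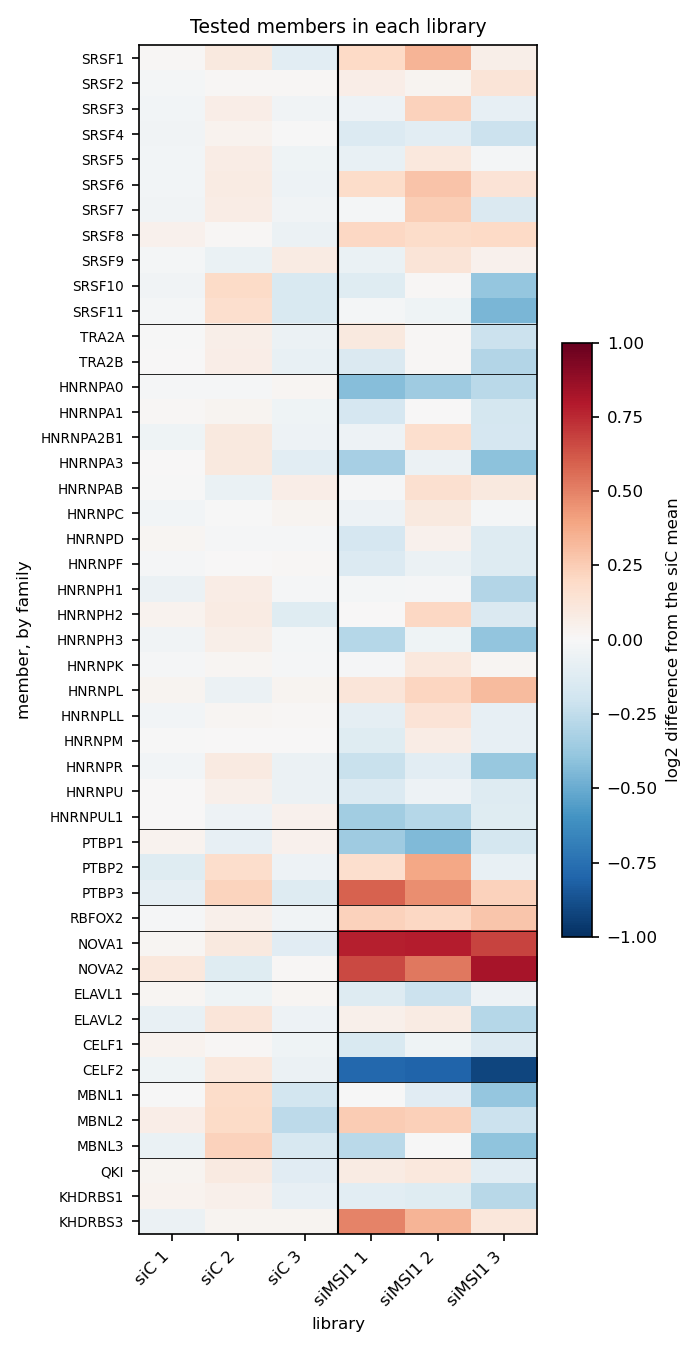
Log2 difference of each tested member (rows, by family) in each library (columns) from the mean of the siC libraries, from blue (lower) to red (higher). CELF2, NOVA1 and NOVA2 differ in all 3 siMSI1 libraries, and siC 2 and siMSI1 2 are redder than the other libraries of their group in most rows.

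In each group most members were highest in the same library. siC replicate 2 was the highest siC library for 33 of the 47 tested members (70.2%), and for 39.5% of all tested genes. siMSI1 replicate 2 was the highest siMSI1 library for 30 members (63.8%), and for 34.1% of all tested genes, and siMSI1 replicate 3 was the lowest for 27 members (57.4%, beside 39.0%). 9 members, PTBP1, NOVA2 and HNRNPL among them, were instead lowest in siC replicate 2. The map of differences per library shows this as a redder column in each group. siC replicate 2 had the most reads of all libraries and siMSI1 replicate 2 the fewest. The part of these differences in the results was not tested.

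The spliceosome itself was compared through 72 proteins of the snRNPs and of the core complexes, all of which passed the filter. 10 were called (13.9%, beside 11% of all tested genes), 5 lower and 5 higher, and their median log2 fold change was -0.05. SNRNP25, of the minor U11/U12 snRNP, was at 24.2, 21.2 and 26.7 FPKM in siC, against 8.67, 11.02 and 12.4 FPKM in siMSI1, a log2 fold change of -1.17 (SE 0.141, limma adjusted p = 0.0013). U2AF2, which recognizes the polypyrimidine tract at the 3′ splice site, was at 109, 99.5 and 110 FPKM in siC, against 54.6, 59.1 and 64.5 FPKM in siMSI1 (log2 fold change -0.84, SE 0.081, limma adjusted p = 0.0006). SNRNP48, also of the U11/U12 snRNP, was at -0.52 (limma adjusted p = 0.0083).

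EFTUD2, the GTPase of the U5 snRNP, was at 27.2, 26.5 and 28.9 FPKM in siC, against 48.8, 46.1 and 56.7 FPKM in siMSI1 (log2 fold change 0.87, SE 0.088, limma adjusted p = 0.0007). SNRNP27, of the tri-snRNP, was at 8.39, 8.97 and 7.79 FPKM in siC, against 15.0, 15.7 and 14.2 FPKM in siMSI1 (log2 fold change 0.83, SE 0.080, limma adjusted p = 0.0006). PRPF31, which joins U4/U6 to U5, was at 0.57 (limma adjusted p = 0.0097). In each of these 6 genes the groups did not overlap, and the calls of SNRNP48 and PRPF31 held in 8 and 7 of 16 other settings. The other 4 that were called were DDX23 and PRPF3, lower, and SF1 and TXNL4A, higher.

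None of the 9 tested kinases and importins that act on SR proteins (10 listed) was called. CLK3, CLK4, PRPF4B and TNPO3 had an unadjusted p under 0.05, 4 of 9 (44.4%) beside 38.3% of all tested genes. limma's voom on reads recovered from the FPKM called 1 of the 9. At an adjusted p of 0.05, 1 of the 9 was lower and 1 higher (22.2%, beside 25.1% of all tested genes). The higher one was CLK4, a kinase of nuclear speckles, at 1.44 FPKM in siC and 2.12 FPKM in siMSI1 (limma adjusted p = 0.042). TNPO3, the importin of SR proteins, was not the lower one, at 53.4 and 46.8 FPKM (limma adjusted p = 0.066). Of 50 other splicing-related RNA-binding proteins, 44 were tested and 2 were called (4.55%, beside 11% of all tested genes). SRRM1, a co-activator in nuclear speckles, was at 12.1, 11.9 and 12.2 FPKM in siC, against 6.94, 6.90 and 6.84 FPKM in siMSI1 (log2 fold change -0.80, SE 0.063, limma adjusted p = 0.0004). ACIN1, a partner of the exon junction complex, was at 25.2, 26.0 and 26.5 FPKM in siC, against 34.9, 35.7 and 37.6 FPKM in siMSI1 (log2 fold change 0.48, SE 0.061, limma adjusted p = 0.0017). 34 of the 44 lay below 0, with a median of -0.09, and 50% of all tested genes lay below 0.

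**Figure D5:**
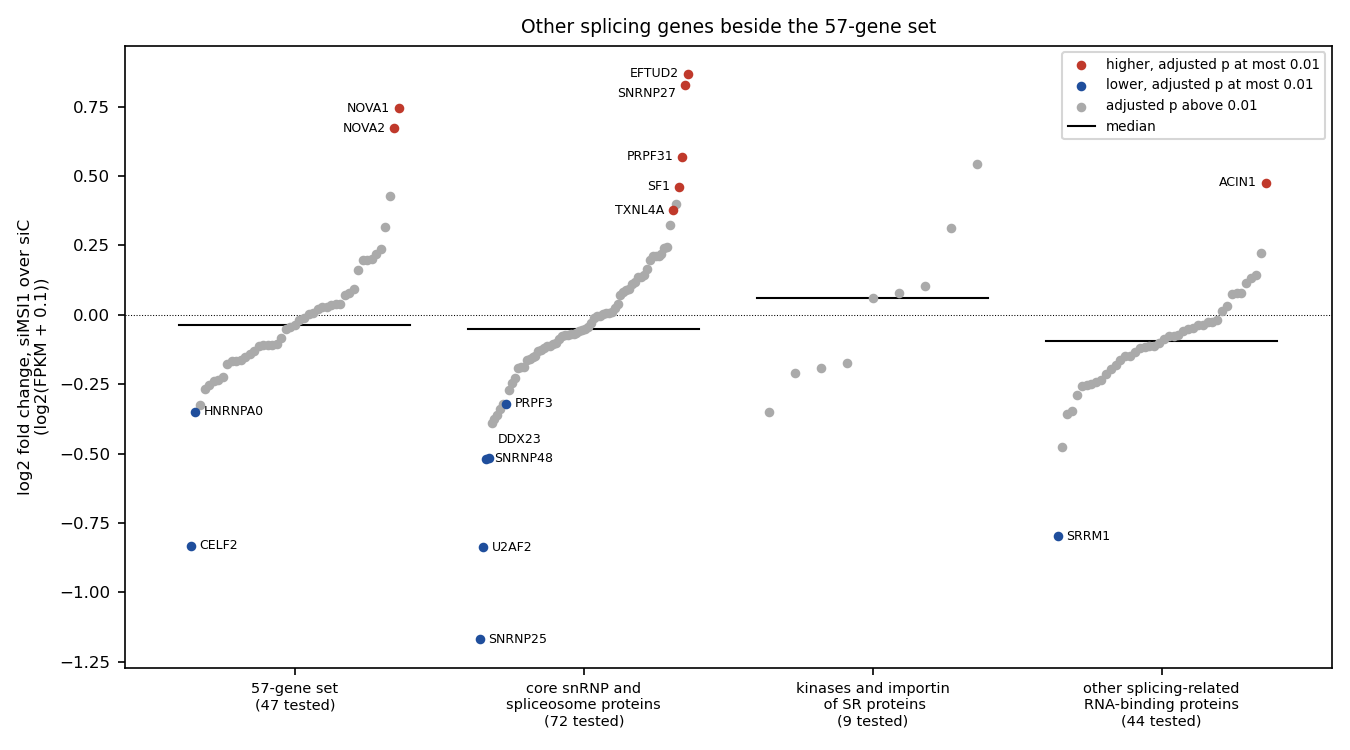
Log2 fold changes of siMSI1 over siC of the tested genes of the 57-gene set and of the 3 other lists of splicing genes, each ordered by its value, with called genes in red (higher) or blue (lower) and named, and the median as a black line. 4, 10, 0 and 2 genes were called, and the medians lie between -0.09 and 0.06.

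Markers of cell types were read beside the members, since in bulk RNA fewer cells of a type and less RNA per cell cannot be told apart. Of 9 glial and glioma markers, 7 were tested, with VIM at 1035 FPKM and SOX2 at 301 FPKM in siC. SOX9 was called lower and GFAP and AQP4 higher, 42.9% of the tested markers of this list beside 11% of all tested genes. S100B and ALDH1L1 were at 0, and the list summed to 1433 to 1496 FPKM in siC and 1231 to 1321 FPKM in siMSI1. Of 9 neuron markers, 4 were tested and 1, SYP, was called lower. DCX had at most 2 reads, and the list summed to 25.9 to 27.4 FPKM in siC and 19.8 to 20.5 FPKM in siMSI1. Most of this sum was SYP (12.9 and 8.93 FPKM), MAP2 (7.62 and 5.63 FPKM) and SYT1 (4.09 and 3.43 FPKM). TUBB3 was at 1.54 FPKM in siC and 1.68 FPKM in siMSI1, and the other 5 did not pass the filter. None of 4 oligodendrocyte, 4 immune and 3 endothelial markers passed the filter, and each list summed to less than 1 FPKM. The oligodendrocyte list summed to 0.011 to 0.018 FPKM in siC and 0.0041 to 0.033 FPKM in siMSI1, on at most 3 reads of a gene in a library. The immune list summed to 0.159 to 0.209 FPKM in siC and 0.248 to 0.558 FPKM in siMSI1, and the endothelial list to 0.134 to 0.262 FPKM and 0.290 to 0.442 FPKM. Both were higher in siMSI1 without overlap, on at most 16 and 37 reads of a gene in a library. The groups did not overlap in 42.8% of all tested genes either. The endothelial PECAM1 and CDH5 were at 0.0052 and 0.017 FPKM in siC, against 0.061 and 0.166 FPKM in siMSI1. VWF, the remaining gene of that list and the one with its highest siC mean, went the other way. In siMSI1 VWF stood at 64.3% of its siC mean, with overlap of the groups. MOG, OLIG2 and AIF1 were at 0. Of 6 epithelial markers, KRT8 and KRT18 were tested and not called, and the list summed to 22.6 to 26.3 FPKM in siC and 19.2 to 24.0 FPKM in siMSI1. The part of these markers in the changes of the NOVA, CELF and HNRNPA0 genes was not tested.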

How the data were processed

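The authors clipped the reads with cutadapt 1.14, aligned them to hg38 with HISAT2 2.1.0, counted them per gene with featureCounts 1.5.3 on an Ensembl annotation, and deposited FPKM per gene and library together with the gene length and with their own edgeR 3.18.1 comparison (log2 fold change, p-value and false discovery rate), which was not used. The submitters' processing notes also name SAMtools 1.5. No column of another sample was present. 100% of the values above 0 were whole reads within 0.01 after multiplication by the gene length, with library sizes scaled by 0.977 to 1.03. 3 reads of a gene of 2 kb correspond to 0.0829 to 0.114 FPKM, which covers counting error only.

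limma 3.58.1 in R 4.3.3 (lmFit, then eBayes with trend and robust) compared siMSI1 with siC on log2(FPKM + 0.1), with no block term, for each gene whose mean over the 6 libraries reached 0.5 FPKM. The Benjamini-Hochberg adjustment ran over all 15069 tested genes, and the threshold was 0.01. The fit was tested on simulated data in which all genes had the same dispersion. False calls of limma there fell on short genes with few reads, which its pass rule left out. No tested member was such a gene, but the share over all tested genes may hold such calls. The 57 members and the other lists were chosen with earlier results of these data known. Values per library are given for each called member and for the highest member of each family, and of each other list the 3 largest falls and rises among called genes are named. The members between 0.01 and 0.05 and SRSF6, SRSF1, HNRNPL, HNRNPA1 and the other members with values were named after these were seen, as were CLK4 and TNPO3. The 16 other settings included 2 other pseudocounts (1 and 0.01), no filter, a mean of at least 1 FPKM, median centring, quantile normalization and plain eBayes. The rest of the 16 were the replicate number as a block, voom on the recovered reads without and with that block, and each library left out. An adjusted p of 0.05 was a further alternative and is not among the 16. Promoters are RefSeq's. pandas 2.3.3, numpy 2.4.6 and matplotlib 3.10.9 (Python 3.11.15) were used for the rest.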

Additional observations from a re-analysis of the deposited data

How the results depend on the processing

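CELF2 was called under each of 16 other settings. Without a filter on low values, 792 genes (2.65%), 1 of 55 members and 4 of 72 core spliceosome proteins were called. With plain eBayes these were 847 genes (5.62%), 2 of 47 members and 4 of 72 core proteins. voom on the recovered reads called 2815 genes (18.7%), 1 of 9 kinases or importins and 5 of 44 other splicing proteins. Its 6 of 47 members added PTBP1 and PTBP3 to the 4. At an adjusted p of 0.05 there were 3787 genes, 8 members, 18 core proteins, 2 kinases or importins and 8 other proteins. Leaving out 1 library gave 517 (3.43%, without siC replicate 1) to 1603 genes (10.6%, without siMSI1 replicate 3), with fewer samples in each fit. These fits called 1 to 4 of 47 members, only CELF2 without siC replicate 1, 2 or 3 or siMSI1 replicate 1. They called 4 to 9 of 72 core proteins and 1 to 4 of 44 other proteins. The cause of the other differences was not tested. Median centring lost HNRNPA0. 13 of the 47 tested members changed sign in at least 1 setting, all with a log2 fold change below 0.1 in size, and 34 did not.

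The deviations of same-numbered libraries of the groups had correlations over all tested genes of -0.07, 0.08 and 0.08, beside -0.14 to 0.07 for other pairs. These values cannot decide whether the numbers pair the libraries. Replicate 2 was the highest library of both groups for most members (70.2% in siC and 63.8% in siMSI1). With the replicate block, 2250 genes (14.9%), 4 members (PTBP1 in place of NOVA1), 13 core proteins and 4 other proteins were called. voom with the replicate block called 4974 genes (33%), 15 members, 25 core proteins, 4 kinases or importins and 14 other proteins.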
